A study of Mus musculus with 20 samples.

Results

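The 10 genes described are Kruppel-like factors of the mouse: Klf2, Klf3, Klf4, Klf6, Klf7, Klf9, Klf10, Klf11, Klf13 and Klf15. They were chosen by the gene symbol in the platform annotation, and all 10 were among the 9275 genes that passed the filter and were tested. The values are log2 signals from 20 Affymetrix MOE430 2.0 arrays, each hybridised with total RNA from the frozen cardiac ventricle of 1 C57BL/6J male mouse, an inbred laboratory strain. The 10 old mice were 25 to 28 months of age and the 10 young mice 4 to 6 months. All mice were housed in a specific pathogen free facility on a daily cycle of light and dark, and no allele, transgene or treatment separates the groups beyond age. A probe set is the group of short probes that reads 1 transcript. It passed the filter if 10 or more of the 20 arrays read above 4 on the log2 scale, and the brightest passing probe set, by mean, stands for its gene. The p-values set each age difference against the spread between arrays of the same age, and the number of arrays limits their precision. That spread holds the differences between mice and anything else that sets the arrays apart.

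Kruppel-like factors are transcription factors that bind GC-rich and CACCC-type DNA through a zinc finger domain at the C terminus, and they differ mainly in the N-terminal part that recruits activators or repressors. In the heart Klf15 acts in muscle cells on fatty acid and branched-chain amino acid metabolism and restrains hypertrophic growth, while Klf2 and Klf4 keep the vascular lining quiescent. Klf10 and Klf11 were first known as early genes induced by transforming growth factor beta (TGF-β), Klf9 and Klf15 are induced by glucocorticoids, and several members are early-response genes of stress or cycle with the clock. The hour at which tissue was taken is not given in the sources used here.

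Promoter sequences were available for 9 of the 10 members, all but Klf10, and 3 are shown because they hold the motifs described here: that of Klf11, which differed with age, that of Klf15, which holds the most E-boxes, and that of Klf2, the one member with a MEF2 motif. Each is the 250 bases before the annotated start, on the plus strand of GRCm38.p6, from RefSeq: Klf15 at chr6:90462326-90462575, Klf11 at chr12:24651121-24651370 and Klf2 at chr8:72318812-72319061. Capitals mark the E-box CACGTG, which is its own reverse complement, and the GC box GGGCGG on either strand, which overlaps a second GC box at 1 place in Klf11. In Klf2 they mark the MEF2 motif and the GC box.
Klf15: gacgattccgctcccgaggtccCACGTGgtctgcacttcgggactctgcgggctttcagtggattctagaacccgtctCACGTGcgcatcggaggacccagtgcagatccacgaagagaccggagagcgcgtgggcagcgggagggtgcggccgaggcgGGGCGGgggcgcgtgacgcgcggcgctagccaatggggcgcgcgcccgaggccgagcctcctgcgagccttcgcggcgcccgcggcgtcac
Klf11: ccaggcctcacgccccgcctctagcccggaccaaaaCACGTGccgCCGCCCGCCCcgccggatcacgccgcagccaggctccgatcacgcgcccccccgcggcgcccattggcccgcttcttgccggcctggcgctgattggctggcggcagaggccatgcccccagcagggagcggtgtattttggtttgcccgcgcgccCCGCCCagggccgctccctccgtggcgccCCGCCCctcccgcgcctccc
Klf2: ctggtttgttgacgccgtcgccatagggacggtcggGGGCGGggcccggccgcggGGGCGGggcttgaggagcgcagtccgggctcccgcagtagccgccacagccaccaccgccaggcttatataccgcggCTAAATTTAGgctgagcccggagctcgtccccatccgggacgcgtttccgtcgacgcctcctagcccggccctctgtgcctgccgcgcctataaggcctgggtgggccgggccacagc
Motifs were searched on both strands of 300-base windows, 250 bases before the start and 50 after. The E-box, the sequence read by CLOCK and BMAL1 and by other basic helix-loop-helix factors, was present in the windows of Klf4, Klf6, Klf11 and Klf15, thus in 4 of 9 members, and in 7.15% of the 32851 windows of all genes. Klf15 held 3 E-boxes, of which the one spanning the start is not in capitals above. The GC box was present in 8 of 9 members and in 35.7% of all windows, and the CACCC box, spelled CACCC, in 6 of 9 members and in 57.5% of all windows. The GC content of the members' windows ran from 58.3% to 77.7%, against a median of 52.7% over all windows, so GC-rich motifs have more chances to match in them. The MEF2 motif was present in Klf2 and in 0.557% of all windows. The cyclic AMP element TGACGTCA, the CArG box, the heat shock element and the palindromic glucocorticoid response element had no match in these 9 windows, where they were present in 1.79%, 1.63%, 0.603% and 0.00913% of all windows. A match is a sequence feature and not a measured binding site.

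Of the 10 Kruppel-like factors, Klf10 was higher in old ventricles and Klf11 was lower, and the other 8 did not pass the test. The 2 calls among 10 genes are 20%, against 18.7% of all genes tested (1732 of 9275), so the share called is near the background. Over all genes 11.2% were higher and 7.49% lower in old. At an unadjusted p under 0.05 in the limma fit, 1635 of the 9275 were higher and 1311 lower. The median difference of the members was −0.14 on the log2 scale, old minus young, against 0.0088 over all genes, and 6 of the 10 estimates were below 0. In no member were the 10 old arrays separate from the 10 young ones, which was so in 1.78% of all genes. Differences were tested with limma, with adjusted p over all 9275 genes and a threshold of 0.05.

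The arrays fall into 5 sets of 4, each with 2 old and 2 young arrays. They were found by clustering these same values after the age means were removed, and the labels name no such sets. Adjusted p from limma fits with the set as an added term (a block) can therefore be too low, and they are given as a description. The β-actin control, whose 3′ probe set exceeds its 5′ one where RNA is degraded, gave log2 gaps of 0.64 to 1.23 in old and 0.66 to 1.15 in young, with 1.01 to 1.23 in set 1 and at most 1.06 in the other sets. The same gap of the Gapdh control did not set that set apart. It was −0.24 to −0.017 in old and −0.17 to −0.053 in young, with −0.13 to −0.079 in set 1. Transcripts of atrial muscle were high in 7 old arrays, with Myl7, the atrial regulatory myosin light chain, above 10, although the labels give ventricle. Myl7 was 8.27 in old 2, 6.58 in old 7 and 2.36 in old 1, and in every young array it was below 4. The summed level of the 13 atrial markers was 11.03 to 16.61 in old and 10.68 to 12.56 in young on the log2 scale, while that of the 13 ventricular markers was 18.13 to 18.35 in old and 18.21 to 18.41 in young. The calls are therefore also given from a fit with an index of atrial transcripts and from one without those 7 arrays. The latter keeps old 1 and 2, of set 1, and old 7, of set 4, while its young arrays cover all 5 sets. Age and array set are thus not balanced in that fit, and old 2 and 7 still carry some atrial signal. With the index 3.74% of all genes were called (2.81% higher, 0.927% lower), and without the 7 arrays 2.93% (2.25% higher, 0.679% lower). In these bulk samples, fewer cells of a type and less RNA per cell cannot be told apart.

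**Figure D1:**
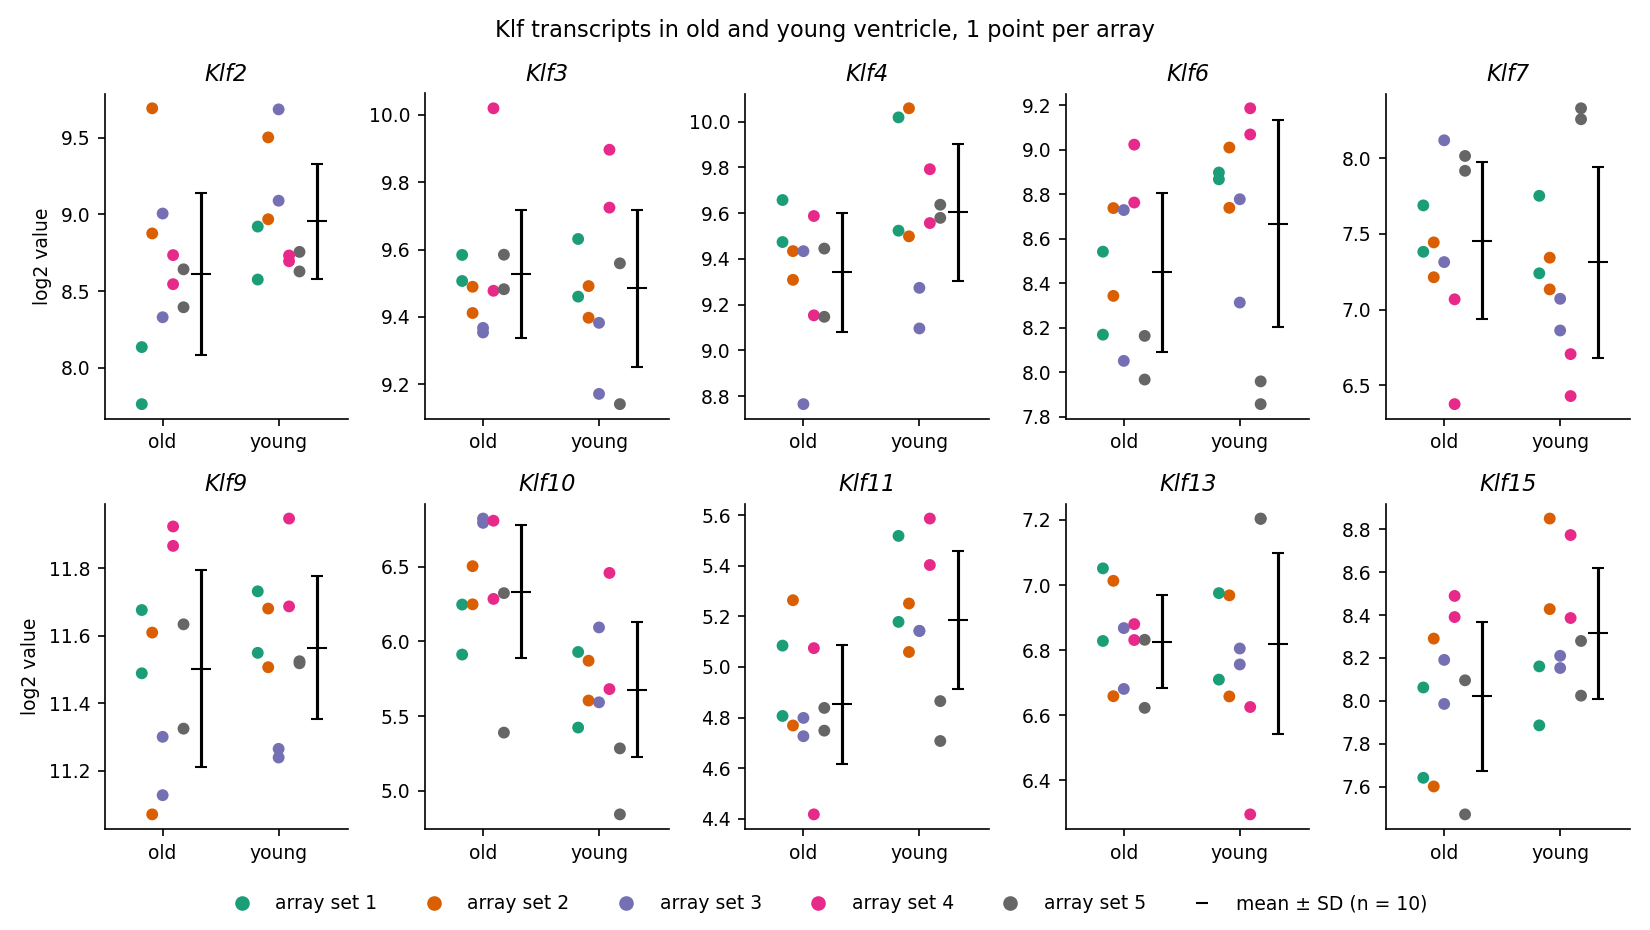
Log2 value of each Klf gene (vertical axes, scaled per gene) in the 10 old and 10 young arrays, 1 point per array, coloured by array set, with the mean and SD to the right of each group. Old and young overlap in every panel, and 4 old points of Klf10 lie above all young points. The points of Klf6, Klf7 and Klf9 are ordered by array set more than by age. The sets took 72.9%, 75.6% and 70.2% of their variance within ages, against a median of 54.1% over all genes.

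Klf10, a repressor also called TGF-β-inducible early gene 1, had log2 values of 5.39, 6.30 and 6.82 in old (lowest, median and highest), against 4.84, 5.64 and 6.46 in young. Of the old arrays 9 lay above the young median and 4 above every young array, while 2 young arrays lay below every old one. The mean was 6.33 ± 0.45 in old ventricles and 5.68 ± 0.45 in young ventricles (SD, n = 10 each). The log2 difference was 0.66 ± 0.19 (SE; 95% interval 0.27 to 1.05; adjusted p = 0.0176), a 1.58-fold higher signal in old. Within the 5 array sets the difference was above 0 each time, from 0.40 to 0.97. The call held in all 20 fits that left out 1 array, with adjusted p between 0.00365 and 0.0361. Adjusted for the atrial index, it was 0.69 ± 0.25 (adjusted p = 0.133), and without the 7 old arrays it was 0.47 ± 0.25 (adjusted p = 0.363). The 3 old arrays that remain then, old 1, 2 and 7, read 6.25, 5.91 and 6.29, all above the young median.

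Klf11, the close relative of Klf10 and TGF-β-inducible early gene 2, went the other way. Its log2 values were 4.42, 4.80 and 5.26 in old, against 4.71, 5.16 and 5.59 in young. Of the old arrays 9 lay below the young median, and 3 young arrays lay above every old one. The mean was 4.85 ± 0.24 in old ventricles and 5.19 ± 0.27 in young ventricles (SD, n = 10 each), a log2 difference of −0.33 ± 0.12 (SE; 95% interval −0.57 to −0.094; adjusted p = 0.0471). Old was lower within 4 of the 5 sets and differed by 0.007 in set 5, and the lowest difference was −0.75 in set 4. The signal lies close above the filter, and the call rests on a narrow margin: it held in 5 of 20 fits that left out 1 array (old 2, 4 or 7, young 14 or 17) and was lost in the others, with adjusted p of 0.0189 to 0.0867. With the atrial index it was −0.27 (adjusted p = 0.353), and without the 7 old arrays −0.20 (adjusted p = 0.595).

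Klf10 and Klf11 are named for their induction by TGF-β. Of 13 tested genes listed as induced by TGF-β, 10 were higher in old and 0 lower, with a median log2 difference of 0.82. At an unadjusted p under 0.05 in the limma fit 11 were higher and 0 lower. The list includes Id1, Id2, Id3, Smad6 and Bambi and the ligand genes Tgfb1, Tgfb2 and Tgfb3. It is not specific to TGF-β, and whether TGF-β acted was not tested. Postn, which encodes the matrix protein periostin, was 10.38 ± 0.62 in old ventricles and 8.67 ± 0.27 in young ventricles (SD, n = 10 each). Its log2 difference was 1.70, beside 2.11 for Id2, an inhibitor of helix-loop-helix factors. The difference was 1.27 for Tgfbi, a secreted matrix protein, and 1.24 for Smad6, an inhibitor of signalling in the TGF-β family. With the atrial index, and also without the 7 old arrays, 5 of the 13 passed, all higher. Between the ages, 11 of 13 tested macrophage markers and 7 of 12 tested fibroblast markers were higher in old and 0 lower. With the atrial index 5 macrophage and 1 fibroblast markers passed, and without the 7 old arrays 6 and 0 did, all of them higher. At an unadjusted p under 0.05 that last limma fit had 10 macrophage markers higher and 0 lower, and 2 fibroblast markers higher and 1 lower. Of 6 tested platelet and red cell markers 6 were higher in old (4 with the atrial index and 4 without the 7 old arrays). Clec1b and Gp1bb have young means below the filter of 4, so they passed it mainly through old arrays. Of 3 tested adipocyte markers 2 were higher (1 with the atrial index and 1 without the 7 old arrays, in both cases Car3). The young mean of Car3, 3.56, is also below the filter, so its count says little. The summed platelet and red cell markers ran from 10.16 to 14.91 in old and from 9.05 to 9.85 in young, and 2 of the 10 named were above 4 in no array. The adipocyte markers summed to 14.24 to 15.98 in old and 14.15 to 14.39 in young. The summed macrophage markers ran from 12.34 to 13.35 in old and from 11.65 to 12.25 in young, and the fibroblast markers from 14.62 to 15.48 in old and from 14.41 to 14.75 in young. The part of these cells in the level of Klf10 was not tested.

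Klf15, the metabolic regulator of heart muscle, had log2 values of 7.47, 8.08 and 8.49 in old, against 7.89, 8.24 and 8.85 in young. The groups overlapped, with 3 old arrays below every young one and 2 young arrays above every old one. The log2 difference was −0.29 ± 0.14 (SE; 95% interval −0.59 to 0.001; adjusted p = 0.159), which did not pass the test. Old was lower within each of the 5 sets, by −0.69 to −0.093. The estimate stayed below 0 in all 11 other settings, between −0.36 and −0.20.

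Of 15 tested metabolic and channel genes known as targets of Klf15, 10 were lower and 0 higher in old and 5 did not pass, with a median of −0.40 (12 lower and 0 higher at an unadjusted p under 0.05 in the limma fit). Kcnip2, the subunit of the transient outward potassium current that Klf15 drives in rhythm, was 8.35 ± 0.35 in old ventricles and 9.35 ± 0.28 in young ventricles (SD, n = 10 each). Its log2 difference was −1.0 (adjusted p = 2.65e-05), and it passed with the atrial index (adjusted p = 0.00364) and without the 7 old arrays (adjusted p = 0.0104). Ldhd, the D-lactate dehydrogenase, differed by −0.66, Gpt, which encodes alanine aminotransferase, by −0.61, and Bckdha, a subunit of the branched-chain keto acid dehydrogenase, by −0.62. The count depends on the fit: 5 of 15 passed after centring each array on its median, 3 with the atrial index and 1 without the 7 old arrays, all lower. Several of these genes encode mitochondrial enzymes and are also under the control of other factors.

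**Figure D2:**
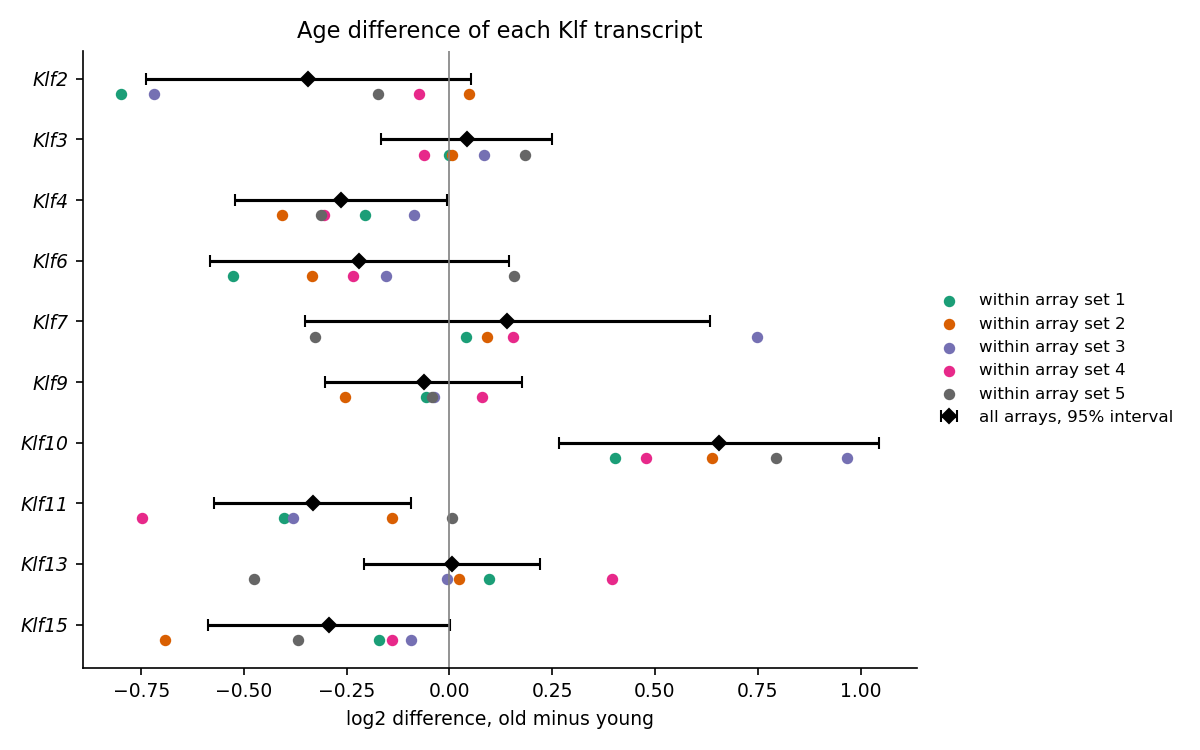
Log2 difference, old minus young, of each Klf gene (horizontal axis) with its 95% interval over all arrays (black diamonds) and the difference within each array set (coloured points, 2 old against 2 young arrays). Klf10 lies above 0 in all 5 sets, Klf4 and Klf15 below 0 in all 5, and Klf7 runs from −0.33 to 0.75.

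Klf9, the glucocorticoid- and thyroid hormone-responsive repressor, did not differ detectably. Its log2 values were 11.07, 11.55 and 11.92 in old, against 11.24, 11.54 and 11.95 in young. The difference was −0.063 ± 0.12 (SE; 95% interval −0.30 to 0.18; adjusted p = 0.754), and its sign turned with the atrial index (0.061) and without the 7 old arrays (0.11). Klf9 and Klf15 varied together across mice: after age and array set were removed, Pearson's r was 0.80 over the 20 arrays (0.58 with age alone removed). With age and set removed that was the highest of the 45 pairs of members, which ran from −0.48 to 0.80 with a median of 0.046, and Klf15 was then the gene most like Klf9 among all genes tested. The next pairs by that measure were Klf3 with Klf10 (0.63, and 0.38 with age alone removed), Klf2 with Klf6 (0.62 and 0.31) and Klf4 with Klf6 (0.57 and 0.40). With age alone removed the highest pair was Klf3 with Klf9 (0.65), which fell to 0.070 once the set was removed too, so the order of the pairs depends on the sets.

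Genes that share hormone and clock input with Klf9 and Klf15 were mixed. Of 16 tested glucocorticoid-induced genes 5 were higher and 3 lower in old. The 5 include Lcn2, the iron-binding lipocalin, with means of 5.74 in old and 3.49 in young; its young mean is below the filter of 4, so the size of its difference is not given. Fkbp5, a chaperone of the glucocorticoid receptor, was higher by 1.33 and Mt2, a metallothionein, by 1.23, while Ddit4, an inhibitor of growth signalling, differed by −1.21. With the atrial index 3 were higher and 1 lower, and without the 7 old arrays 2 were higher and 0 lower. Among 15 tested clock genes 3 were higher and 0 lower (4 and 3 at an unadjusted p under 0.05 in the limma fit). Bhlhe40, a repressor at E-boxes, differed by 0.89, Nr1d1, the nuclear receptor that represses Bmal1, by 0.93 and Dbp, an output gene of the clock, by 1.30. Ciart, a further clock repressor, differed by 1.06 with an adjusted p of 0.0562 (0.0344 with the array set as a block). Without the 7 old arrays 1 clock gene passed, and with the atrial index 4 passed.

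The probe sets of Klf9 split the arrays along the sets rather than along age. Probe set 1456341_a_at read 8.41 to 9.35 in the 8 arrays of sets 2 and 4 and 10.35 to 11.57 in the other 12 arrays, with no overlap. Probe set 1436763_a_at read 2.95 to 4.54 in the same 8 arrays and 5.46 to 7.69 in the other 12. The highest and lowest set means differed by 6.25-fold for 1456341_a_at, against 1.54-fold for 1428288_at, which represents the gene. No such fold is given for 1436763_a_at, since its 4 arrays in set 4 read below the filter of 4. Their age differences were −0.080 and 0.070, with adjusted p of 0.942 and 0.959. The split was chosen after the values were seen, and what sets the arrays apart was not tested.

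**Figure D3:**
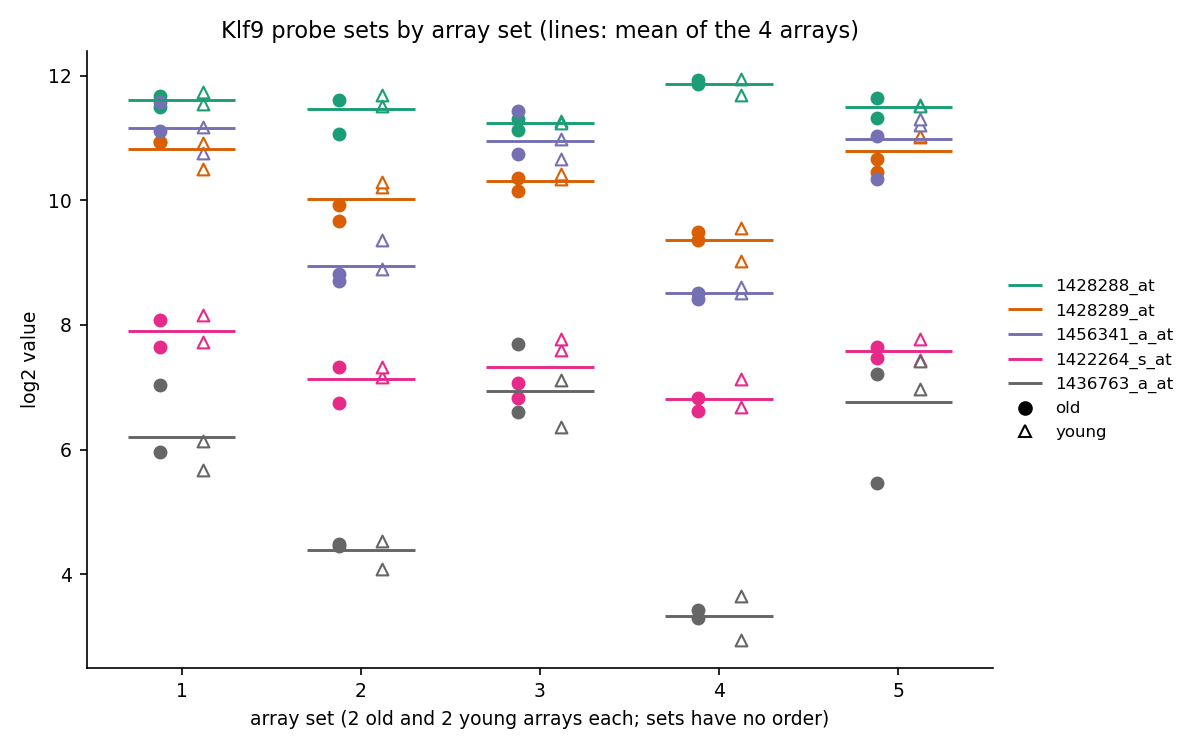
Log2 values of the 5 passing Klf9 probe sets (vertical axis) in the 5 array sets (horizontal axis, in no order), with filled circles for old, open triangles for young and a line at the mean of the 4 arrays. Probe sets 1456341_a_at and 1436763_a_at are low in all 8 arrays of sets 2 and 4, at ages old and young alike, while 1428288_at stays between 11.07 and 11.95.

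Klf2, the flow-induced factor of endothelial cells, had log2 values of 7.76, 8.59 and 9.69 in old, against 8.57, 8.84 and 9.68 in young. 5 old arrays lay below every young one and 1 lay above all of them. The difference was −0.34 ± 0.19 (SE; 95% interval −0.74 to 0.052; adjusted p = 0.222). The lowest values were those of old 1 and 2, at 7.76 and 8.13, which carry less atrial signal than the 7 old arrays left out. Both also belong to set 1, which had the lowest mean of Klf2 among the sets, 8.35. Without the 7 old arrays the estimate became −0.74 (adjusted p = 0.121), and atrial signal and array set cannot be told apart there. Within sets the difference ran from −0.80 in set 1 to 0.049 in set 2.

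Klf4, a partner of Klf2 in endothelium that also acts in smooth muscle and macrophages, had log2 values of 8.77, 9.43 and 9.66 in old, against 9.10, 9.57 and 10.06 in young. Of the old arrays 8 lay below the young median, and 3 young arrays lay above every old one. The difference was −0.26 ± 0.12 (SE; 95% interval −0.52 to −0.005), with a p of 0.0461 in the limma fit that became 0.149 after adjustment. Both probe sets of Klf4 and all 5 array sets gave estimates below 0, the sets from −0.41 to −0.085.

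Endothelial genes that Klf2 and Klf4 are known to regulate were counted next. Of 13 tested, 4 were higher in old and 0 lower (5 and 0 at an unadjusted p under 0.05 in the limma fit), with a median of 0.16. Genes that these factors repress and genes that they induce were both among those higher. Icam1 (1.73) and Vcam1 (1.35), adhesion molecules that Klf2 and Klf4 repress, were higher, as were Thbd (0.54), the thrombomodulin gene that they induce, and Adm (1.44), the adrenomedullin gene. Nos3, the endothelial nitric oxide synthase and a gene that they induce, differed by 0.26 with an adjusted p of 0.26 (0.0386 with the array set as a block). With the atrial index and without the 7 old arrays 3 of the 13 passed, Adm no longer among them. Of 17 endothelial markers 4 were higher and 1, Cldn5, was lower, and their summed level was 12.07 to 13.03 in old and 11.94 to 12.34 in young. With the atrial index, and also without the 7 old arrays, 2 of these markers were higher and 0 lower. Icam1 and Vcam1 are also made by other cells, and the part of cell makeup was not tested.

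Klf6, an early factor of injury and cell stress, had log2 values of 7.97, 8.44 and 9.02 in old, against 7.86, 8.82 and 9.19 in young. Although 9 of 10 old arrays lay below the young median, the ranges overlapped throughout. The difference was −0.22 ± 0.18 (SE; 95% interval −0.58 to 0.14; adjusted p = 0.416). All 5 probe sets of Klf6 gave estimates below 0, from −0.36 to −0.15, but they read the same RNA and are not separate evidence. At the probe set that represents Klf6, 1433508_at, array set 5 had the lowest mean, 7.99, and set 4 the highest, 9.01. Probe set 1418280_at read 3.74 to 4.55 in set 5 and 5.58 to 7.25 in the other sets. The pattern was not shared by 1427742_a_at, whose mean was 6.84 in set 5, close to 6.89 in set 4, and lowest in set 1 at 5.80.

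Immediate early genes, which like Klf2, Klf4, Klf6 and Klf10 respond quickly to stimuli, were also mixed. Of 21 tested 2 were higher and 4 lower in old, with a median of −0.084. Nr4a1 (−1.98) and Nr4a2 (−1.31), orphan nuclear receptors, and Atf3 (−0.98), a stress-induced repressor, were lower, while Ier3 (0.79), a survival factor, was higher. The other gene called higher, Maff, has a young mean of 3.71, below the filter of 4. With the atrial index 2 passed and without the 7 old arrays 3 passed, all lower. Without those arrays 19 of the 21 estimates were below 0, with a median of −0.33. At an unadjusted p under 0.05 that limma fit had 2 higher and 8 lower. The gene most like Klf2 across mice was Junb, an early gene of the AP-1 complex, with r of 0.88 after age and set were removed and 0.83 with age alone removed. Junb itself differed by 0.47 with an adjusted p of 0.226, in the direction opposite to Klf2. Fosl2, a further AP-1 gene, was among the 3 genes most like Klf4 by the first measure (0.80), but had r of 0.31 with age alone removed.

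Klf7, a factor known from neurons and fat cells, had log2 values of 6.38, 7.41 and 8.12 in old, against 6.43, 7.19 and 8.33 in young. Its difference of 0.14 ± 0.24 (SE; 95% interval −0.35 to 0.63; adjusted p = 0.731) was small beside its spread. The array sets took 75.6% of the variance of Klf7 within ages, the highest share among the members, with set means at its representing probe set, 1419354_at, of 6.65 in set 4 and 8.13 in set 5. Probe set 1419356_at had the opposite order, with its highest mean in set 4 (6.99) and its lowest in set 5 (5.29). All 4 probe sets of Klf7 gave estimates above 0, from 0.086 to 0.25. The genes most like Klf7 were 2310009B15Rik (0.85, and 0.80 with age alone removed), Gar1 (0.85 and 0.72) and Nop16 (0.84 and 0.92), of which Gar1 and Nop16 encode nucleolar proteins.

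Klf3, a repressor that recruits CtBP, had log2 values of 9.35, 9.49 and 10.02 in old, against 9.14, 9.48 and 9.90 in young. The medians differed by less than the spread in either group, and the top value is that of old 8. The difference was 0.042 ± 0.10 (SE; 95% interval −0.17 to 0.25; adjusted p = 0.817), which turned to −0.022 after centring over the genes tested and to −0.013 without old 8. Of its 7 probe sets 4 passed, all with estimates above 0, and 1421604_a_at gave the highest at 0.43 (adjusted p = 0.274 over probe sets).

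Klf13, which in frog embryos acts with the cardiac factor Gata4, had log2 values of 6.62, 6.83 and 7.05 in old, against 6.30, 6.78 and 7.20 in young. All old arrays lay inside the young range. The difference was 0.0065 ± 0.10 (SE; 95% interval −0.21 to 0.22; adjusted p = 0.973), and its sign turned with the scaling, to −0.072 after quantile normalization and −0.058 after centring over the genes tested. The highest young values, in set 5, and the lowest, in set 4, came from different sets, and the within-set differences ran from −0.48 to 0.40.

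**Figure D4:**
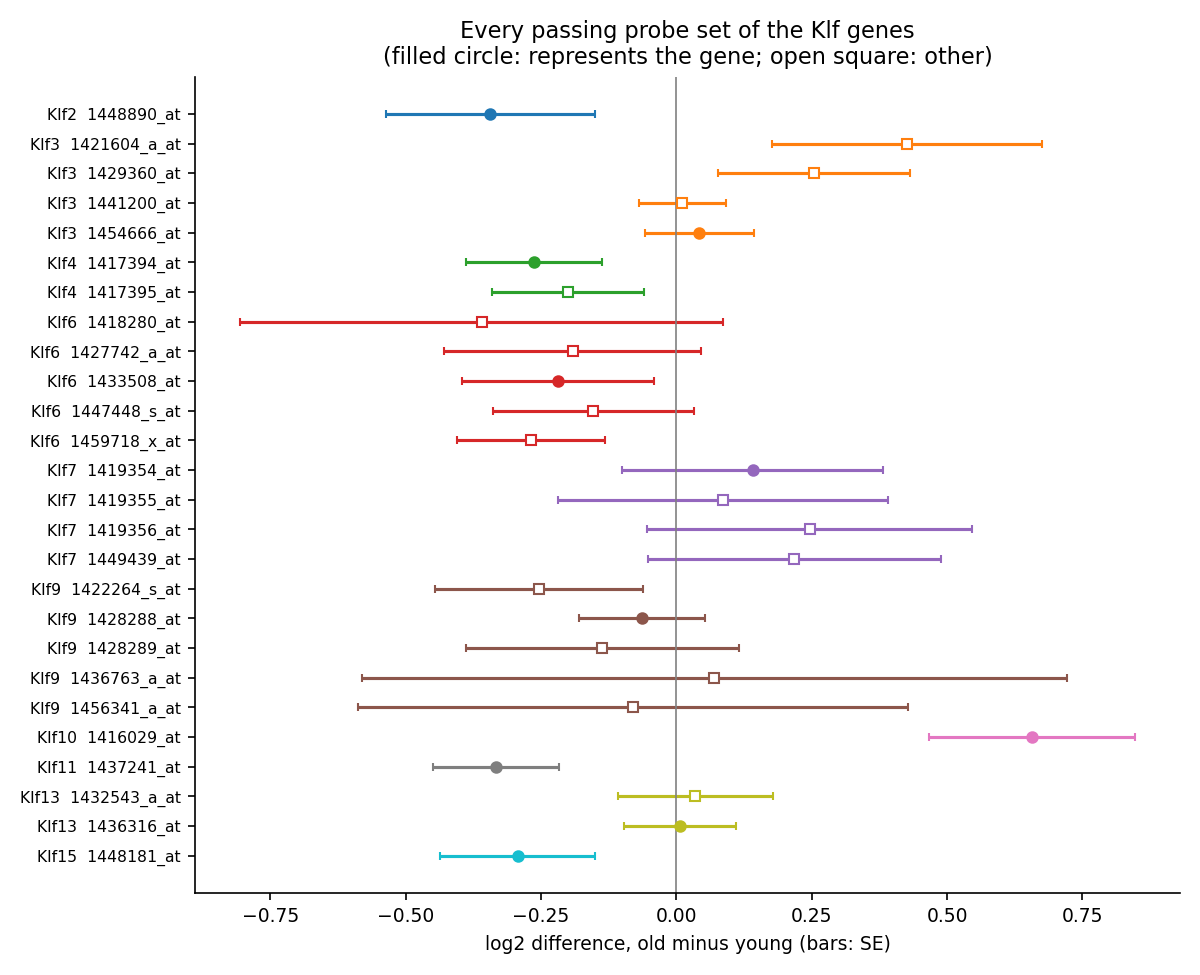
Log2 difference, old minus young (horizontal axis, bars SE), of the 26 passing probe sets of the Klf genes, with filled circles for the probe set that represents the gene. The probe sets of Klf6 lie below 0 and those of Klf7 above, the bars of Klf9 1436763_a_at and 1456341_a_at are the widest, and Klf10 stands at 0.66.

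The members had 32 probe sets with the gene as their 1 annotation, of which 26 passed the filter, 14 with estimates below 0 and 12 above. When each passing probe set was tested on its own, 1 passed, that of Klf10 (adjusted p = 0.0234 over 15304 probe sets, of which 14.8% were called), and that of Klf11 had an adjusted p of 0.0572. Klf2, Klf10, Klf11 and Klf15 have 1 probe set each, so no second probe set bears on them. Over the members the share of variance within ages that lies between array sets was 24.7% for Klf13 and 30.0% for Klf11 at the low end and 72.9% for Klf6 and 75.6% for Klf7 at the high end, against a median of 54.1% over all genes. The sets were found on these values, so these shares and the p-values of the block fits are a description. With the set as a block the same 2 members passed, Klf10 and Klf11, while the share of all genes called was 36.1%. With the block and the atrial index together neither passed, at 6.24% of all genes called. Klf10 and Klf11 passed after quantile normalization (20.2% of all genes) and after centring over the genes tested (21%), and Klf10 alone after centring each array on its median (18%).

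For the remaining members the genes most alike across the 20 arrays are given by r after age and set were removed, followed by r with age alone removed. For Klf10 they were Prcp (0.80 and 0.60), Pkp4 (0.78 and 0.61) and Plxnb2 (0.78 and 0.55). For Klf11 they were Myo18a (0.83 and 0.19), Tmem182 (0.81 and 0.69) and Ccdc149 (0.79 and 0.46). For Klf15 they were Psmd5 (0.85 and 0.39) and Cbr1 (0.84 and −0.064), followed by Klf9. For Klf4 they were Galns (0.84 and 0.24) and Mgat4a (0.82 and 0.73), and for Klf6 4632427E13Rik (0.81 and 0.63). For Klf13 they were Mrpl24 (0.83 and 0.70) and Acot8 (0.82 and 0.81), and for Klf3 Rnf20 (0.81 and 0.44) and Abcg1 (0.81 and 0.55). Several of these likenesses, such as those of Cbr1, Myo18a and Galns, are thus far lower where the array sets, themselves found from the data, are not removed. These are the highest of 9275 genes over 20 arrays of shared sets and hybridisations, and they are a description.

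Of the Kruppel-like factors outside the 10, Klf12, a repressor of the same branch as Klf3, was the one that passed the filter, with a difference of −0.32 (adjusted p = 0.331; 0.0265 with the array set as a block). Klf1, Klf5, Klf14 and Klf17 stayed below 4 in every array, and Klf16 exceeded 4 in 1 array. The related factors Sp1, Sp3 and Sp4 were tested with limma and none passed, also at an unadjusted p under 0.05, with differences of 0.079, 0.31 and −0.12. With the array set as a block Sp3 had an adjusted p of 0.0101, in a limma fit that called 36.1% of all genes. Of 11 tested genes for partners of the Klf proteins, Hdac1, a histone deacetylase of the Sin3 complex, was higher by 0.35 (adjusted p = 0.0427) and none was lower. It no longer passed with the atrial index (adjusted p = 0.62), after quantile normalization or after centring over the genes tested. Wdr5, a subunit of histone methyltransferases, Sin3b, a scaffold that Klf10 and Klf11 bind, and Ctbp2, a corepressor of Klf3, differed by −0.20, −0.11 and −0.10, with adjusted p of 0.219, 0.468 and 0.518.

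**Figure D5:**
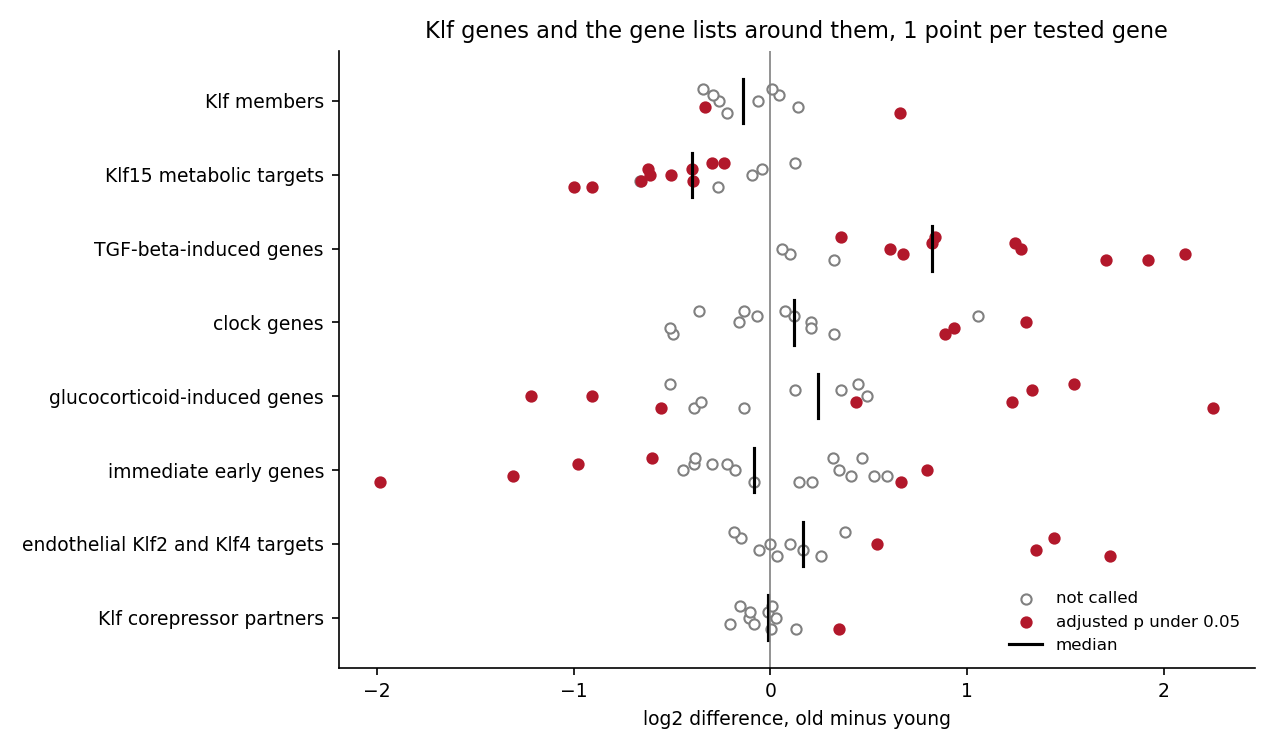
Log2 difference, old minus young (horizontal axis), of each tested gene in the Klf set and in the 7 lists around it, filled red where the adjusted p is under 0.05, with the list's median as a black line. The Klf genes lie within −0.34 to 0.66, the genes listed as TGF-β-induced have a median of 0.82 and the Klf15 targets a median of −0.40.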

How the data were processed

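The deposited table holds log2 values for 45101 probe sets on 20 arrays. Per the submitters' processing notes the authors used GCRMA, a method of background correction from probe sequence, normalization and summary per probe set. Its version and the base of the log were not stated in the sources used, and log2 was inferred from the range of 0.98 to 16.0. Dim genes are compressed toward a floor by this method. Array medians were 3.07 to 3.20 and Spearman correlations between arrays 0.95 to 0.995. Groups came from the sample titles; the series' design text calls both ages young, and titles and protocols, which separate them, were followed.

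Gene names came from the platform annotation (34945 with 1 gene, 932 with several, 9160 unnamed here), updated to a RefSeq gene table of GRCm38.p6 by gene identifier. After the filter, 9275 genes were compared with limma 3.58.1 (lmFit and eBayes, R 4.3.3), without covariates, and p-values were adjusted over all of them by Benjamini-Hochberg; the code was tested on simulated data. The atrial index averages the linear Myl7 and Sln values after division by each gene's top array. Named are the 10 members, up to 4 genes with the smallest p per list, and the 3 genes most correlated with each member. Myl7, Nos3 and Maff were named after their values were seen. The members and the 19 lists (264 entries, 247 matched) were chosen with earlier results of these data known. Other settings were quantile normalization, median centring of all probe sets or, added after the data were seen, of the genes tested, no filter, filtering at 6, averaging a gene's probe sets, the index, omission of 7 old arrays, the array set as a block, both, eBayes with trend and robust, and omission of each array. Promoter windows and their coordinates are RefSeq's.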

Additional observations from a re-analysis of the deposited data

Results flagged for a closer look

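Klf3 in old 8 read 10.02 on the log2 scale, further from the next old array than Dixon's test allows at 95% for 10 samples. Without old 8 the age difference of Klf3 was −0.013, and with it 0.042, neither past the threshold. This was 1 flag among 20 groups of arrays examined (10 members in 2 ages), and chance gives about 1 in 20.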

How the results depend on the processing

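Of the members, 2 were called in the deposited values. 1 was called after median centring, with the filter at 6 (where Klf11 was not tested) and with eBayes trend and robust. With the atrial index, without the 7 old arrays, and with set block plus index, 0 were called. In the last of these, Klf10 was 0.54 (adjusted p = 0.125) and Klf11 −0.43 (adjusted p = 0.0997). At an unadjusted p under 0.05 limma gave 1, 1 and 3 of the 10 members in those fits. Over all 9275 genes it gave 1029 higher and 704 lower with the index, and 924 and 595 without the 7 arrays. With block plus index it gave 1196 and 922. Leaving out 1 array gave 1 to 2. Klf10 was called in 8 of 11 other settings and Klf11 in 5 of 10; both kept their sign in all of them. Of the 9275 genes 1732 were called, against 4345 of 18193 genes with no filter. Of the same 9275 genes 347 were called with the index, 272 without the 7 arrays, 3344 with the set block and 579 with block plus index. Rises were 59.9% of calls, 43.2% after quantile normalization, 68.6% after median centring and 41.9% after centring over the genes tested. Across these settings and the passing probe sets, directions turned only in members past no threshold. Klf13 turned under quantile normalization (−0.0722) and centring over the genes tested (−0.0576). Klf3 turned under that centring (−0.022) and with block plus index (−0.0718). Klf9 turned with the index (0.0612), without the 7 arrays (0.112) and at probe set 1436763_a_at (0.0703). Within single array sets the sign also turned in Klf2, Klf3, Klf6, Klf7, Klf9 and Klf13, and in Klf11 in set 5 (0.007). Leaving out 1 array moved Klf13 from −0.0518 to 0.0492 and Klf3 from −0.0125 to 0.0879. The causes were not tested. Precision differed between the fits. The SE of Klf10 was 0.19 in the deposited values, 0.25 with the index and 0.25 without the 7 arrays. It was 0.14 with the set block. No paired analysis was possible because the old and young arrays share no replicate numbers. Dim signal limits Klf11, which lies close to the filter.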
